A study of Mus musculus with 2 samples.

Results

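The replication-dependent histone genes were examined for contacts with the Pou5f1 enhancer in mouse embryonic stem (ES) cells. Members were the protein-coding genes of the GENCODE M1 annotation (mm9 assembly) whose symbols start with Hist1h, Hist2h, Hist3h or Hist4h. This rule found 67 genes among 21259 protein-coding genes outside chromosome 17, the chromosome that carries the bait, and chromosome Y. All 67 lay on these chromosomes. Both samples were untreated cells of the E14 line, an established mouse ES cell line grown with LIF, and formed 1 group of 2 replicates. In each, enzyme-based 4C-Seq joined DNA cross-linked near the bait, an enhancer upstream of Pou5f1, through HindIII ends, and the joined ends were sequenced. The study calls them biological replicates, and the labels give no more. The files hold positions only. They give no expression value, so the cell type could not be checked against markers, and the read depth behind each region is unknown. For whole libraries, the study lists more junction tags for its first enzyme replicate than for its second. The part of this in differences between the replicates was not tested.

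Replication-dependent histones are the core histones H2A, H2B, H3 and H4 and the linker histone H1 that package newly copied DNA. Their genes lie in tandem clusters, are transcribed mainly in S phase, and are gathered in the nucleus in histone locus bodies. Their mRNAs end in a conserved stem-loop in place of a poly(A) tail, which is bound by the protein SLBP. Variant histones such as H3.3 or H2A.Z are made throughout the cell cycle from genes elsewhere in the genome.

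Members less than 500 kb apart were joined into 6 blocks. The largest cluster, on chromosome 13, held 2 blocks. The first Hist1 block (chr13:21807632-22135545, 327.9 kb) held 23 members from Hist1h2bl to Hist1h2bj, and the second (chr13:23622919-24026720, 403.8 kb) held 31 members from Hist1h4h to Hist1h2aa. A single gene, Hist1h2al, lay alone on the same chromosome (chr13:51298057-51298434). The Hist2 block (chr3:96023839-96082924, 59.1 kb) held 9 members, the Hist3 block (chr11:58762413-58770176, 7.76 kb) held 2, and Hist4h4 (chr6:136752589-136752900) lay alone. By type there were 6 H1, 19 H2A, 18 H2B, 11 H3 and 13 H4 genes. Of the 6 H1 genes, 5 were in the second Hist1 block and 1 (Hist1h1b) in the first.

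The stem-loop was used to check the members against their label, and its versions are shown because they separate the H4 genes from the other types. The pattern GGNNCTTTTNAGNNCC was searched on the coding strand in the 200 bases after the stop codon, in the mm9 reference. It was found in 58 of 67 members (86.6%) and in 5 of 21853 other protein-coding genes (0.0229%), of which H2afx, the gene of the variant H2A.X, was one. The pattern itself pairs the GG and CT of one arm with the CC and AG of the other, so only the N positions of the arms could fail to pair. In all 58 these paired too, so the 6 bases of one arm were the reverse complement of the other. The 6 versions are given for 1 member each, 5′ to 3′ on the gene's strand, with the arms of the stem in capitals and the loop of 4 bases in lower case.
Hist1h1b (chr13:21871706-21871721, minus strand): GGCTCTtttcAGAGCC
Hist2h2ab (chr3:96024256-96024271, plus strand): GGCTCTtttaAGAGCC
Hist2h2ac (chr3:96024341-96024356, minus strand): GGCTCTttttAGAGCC
Hist4h4 (chr6:136752519-136752534, minus strand): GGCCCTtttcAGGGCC
Hist2h4 (chr3:96066862-96066877, minus strand): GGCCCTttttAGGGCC
Hist1h4j (chr13:21827306-21827321, plus strand): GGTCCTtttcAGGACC
The version of Hist1h1b was the commonest, with 36 members, none of them H4. That of Hist2h2ab was found in 9 members of the H1, H2A, H2B and H3 types, and that of Hist2h2ac in 1. The last 3 versions were found in H4 genes only (8, 2 and 2 members, 12 of the 13 H4 genes). The stem-loop began 21 to 58 bases after the stop codon (median 31).

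The 9 members without the pattern were Hist1h2an, Hist1h2bp, Hist1h2bq, Hist1h2br, Hist1h3g, Hist1h4a, Hist1h2al, Hist2h2be and Hist2h2bb. The annotated coding sequence of Hist1h2al does not begin with ATG (378 bases), so this gene is incomplete in the annotation, and its place among the members is uncertain. No match means only that these letters were not in the 200 bases searched. The H2A and H2B genes were often arranged head to head. In 12 pairs, which held 24 members, an H2A and an H2B gene ran in opposite directions with 167 to 305 bases between them (median 227.5), and 0 neighbouring pairs of other types lay that way within 500 bases.

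No histone gene lay in an enriched region of both replicates. Enriched regions are windows of HindIII sites with more contacts than expected, called in each replicate alone. In replicate 1, 0 of 67 members overlapped an enriched region. In replicate 2, 10 of 67 (14.9%) did, and 0 were in regions of both. The mean was 5 ± 7.07 members (SD, n = 2). Over all protein-coding genes outside chromosome 17, 17.9% overlapped a region in replicate 1, 20.2% in replicate 2, 10.1% in both and 28.0% in either. The share of histone genes in replicate 2 was thus a little under that of all genes, and replicate 1 held none. Neighbouring members share the same region, and regions had a median length of 2.62 Mb in replicate 1 and 2.52 Mb in replicate 2. The 67 genes thus amount to at most 6 positions, and no test was made over genes. The Hist1 blocks lie 1.49 Mb apart, less than these lengths, so they are not independent positions. By position, 0 of 6 blocks had their midpoint in a region of replicate 1 and 2 of 6 in a region of replicate 2. Without Hist1h2al, whose annotation is incomplete, 1 of 5 blocks and 9 of 66 members were in regions of replicate 2. Joining the Hist1 blocks instead gave 0 of 5 positions in replicate 1 and 2 of 5 in replicate 2.

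The 10 members in regions of replicate 2 were Hist1h2al and the whole Hist2 block. By type these were 5 of 19 H2A, 2 of 18 H2B, 2 of 11 H3, 1 of 13 H4 and 0 of 6 H1 genes. The Hist2 block comprised Hist2h2ab, Hist2h2ac, Hist2h2aa1 and Hist2h2aa2, which encode H2A, Hist2h2be and Hist2h2bb, which encode H2B, Hist2h3b and Hist2h3c1, which encode H3, and Hist2h4, which encodes H4. The region that held the Hist2 block (chr3:94637246-97318624) extended 1.39 Mb before and 1.24 Mb beyond it. It contained 85 protein-coding gene starts, or 31.7 per Mb, which ranked it 10 of 94 regions of replicate 2 by density. Replicate 1 had no region there. Its nearest region ended 4.47 Mb before the block. Hist1h2al was held by the region at chr13:49346321-52204483, with 10.1 gene starts per Mb (rank 61 of 94). In replicate 1 the nearest region began at the base after this one ends, 0.906 Mb from the gene.

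The remaining 57 members were in no region of either replicate. The first Hist1 block lay 30.1 Mb from the nearest region in replicate 1 and 18.4 Mb in replicate 2. The second lay 28.2 and 16.5 Mb away. Both sit in a stretch of 37.5 Mb at the start of chromosome 13 (from 3000000 to 40499008) with no region in either replicate, although it holds 320 gene starts (8.53 per Mb, against 8.63 per Mb over all chromosomes but 17). Among 124 such region-free stretches it ranked 14 by length, and their median was 9.42 Mb.

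The Hist3 block, with the H2A gene Hist3h2a and the H2B gene Hist3h2ba, lay 42.7 Mb from the nearest region in replicate 1 and 10.4 Mb in replicate 2. It sits in a region-free stretch of 60.8 Mb with 515 gene starts, the fifth longest. Hist4h4, an H4 gene, was close to a region in 1 replicate only. It lay 0.313 Mb beyond a region of replicate 1 (chr6:133994417-136439672) and 6.59 Mb from the nearest one in replicate 2.

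**Figure D1:**
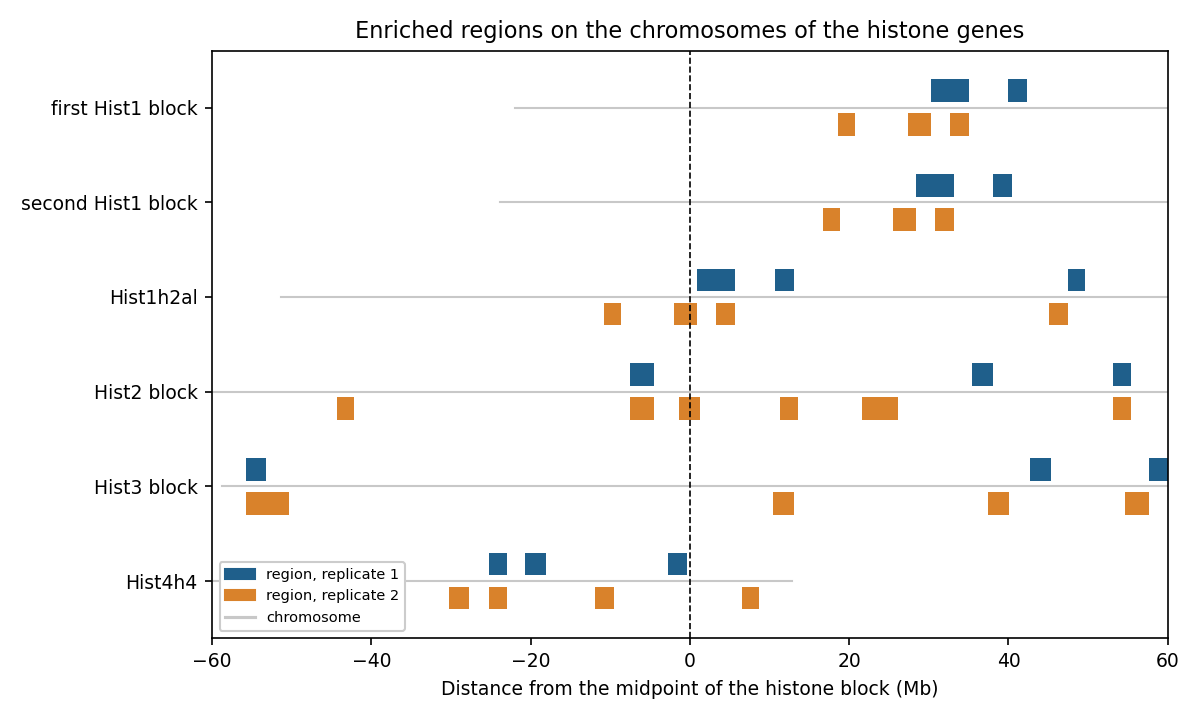
Enriched regions around the 6 histone blocks. The horizontal axis is the distance from the midpoint of each block in Mb (up to 60 Mb each side), bars are regions of replicate 1 (blue, upper) and replicate 2 (orange, lower), and the grey line is the extent of the chromosome. Only the regions of replicate 2 at Hist1h2al and the Hist2 block cross the midpoint, and the bar nearest to a Hist1 block, of replicate 2, begins 16.5 Mb beyond the second.

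The distance of all protein-coding genes outside chromosome 17 to the nearest region had a median of 7.05 Mb in replicate 1 and 5.01 Mb in replicate 2. For the 6 blocks, the median of the mean distance over both replicates was 12.9 Mb (8.49 Mb without replicate 1, 16.3 Mb without replicate 2). With the Hist1 blocks joined, which leaves 5 positions, it was 3.45 Mb and thus under the medians of all genes, and without Hist1h2al it was 22.3 Mb, so the blocks together gave no stable direction. In replicate 1, 19.5% of all genes were as far from a region as the first Hist1 block or farther, and 21% were as far as the second. In replicate 2 these shares were 15.6% and 18.6%. For the Hist3 block they were 9.63% and 32.7%. The Hist1 and Hist3 blocks were therefore farther from regions than most genes in both replicates, but within the range of all genes. The distances of Hist4h4 (79.7% of genes as far or farther in replicate 1, 44.2% in replicate 2) and of Hist1h2al and the Hist2 block in replicate 1 (75.3% and 58.0%) were near or under the median.

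**Figure D2:**
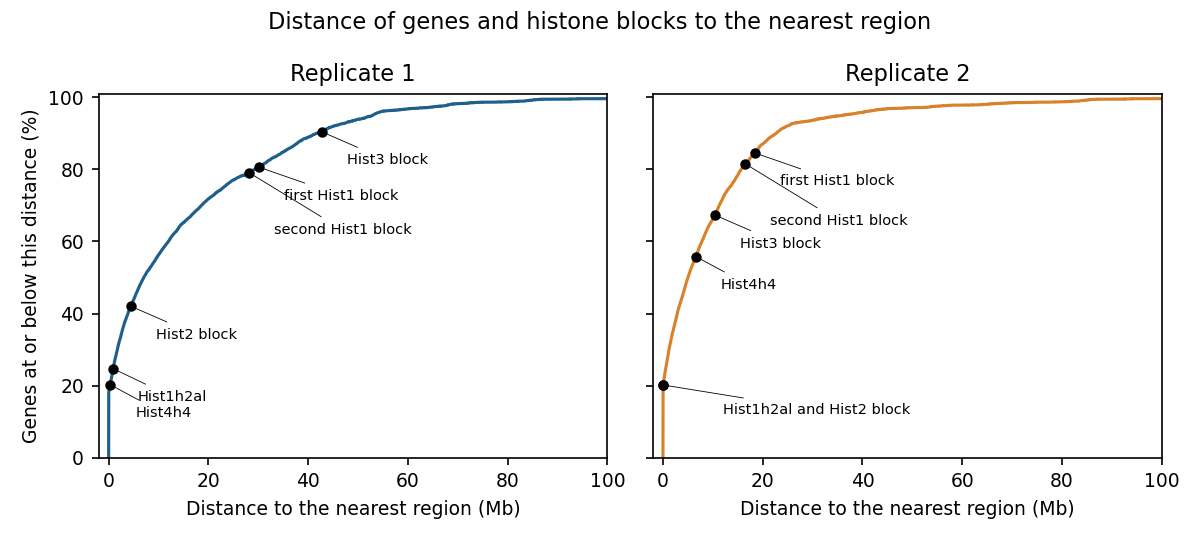
Distance to the nearest region for all 21259 protein-coding genes outside chromosome 17 (curves, cumulative percent) and for the 6 histone blocks (points), in replicate 1 (left) and replicate 2 (right). The Hist1 blocks lie at 28.2 and 30.1 Mb on the left and at 16.5 and 18.4 Mb on the right, on the flat upper part of each curve.

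To take gene density into account, the blocks were set against stretches of the genome with a like number of genes. Each block was extended to 500 kb, and all stretches of that length (starting every 100 kb, chromosomes 17 and Y and the blocks themselves left out) whose protein-coding gene starts were within 25% of the block's were listed. These stretches overlap each other and share regions, so they serve as a description and give no p-value. Over all 24743 stretches, 8.34% had their midpoint in a region of replicate 1 and 9.77% in a region of replicate 2. The share rose with gene number, from 2.08% and 3.50% for stretches without a gene start to 37.0% and 42.7% for those with 21 to 30. The 73 stretches with 31 or more gene starts had 39.7% and 41.1%.

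The Hist1 blocks are among the densest stretches of the genome. The first had 32 gene starts in 500 kb and the second 39, and 0.255% and 0.0364% of all stretches had as many or more. Of 294 stretches matched to the first block, 41.2% were in a region of replicate 1, 43.9% in a region of replicate 2, and 45.2% in neither, like the block itself. Of 88 stretches matched to the second, 43.2% and 45.5% were in regions and 40.9% were in neither. Most of these gene starts are the histone genes. Without the members, the Hist1 blocks had 9 and 8 gene starts, and stretches matched on those counts were in neither replicate's regions in 76.6% and 77.8% of cases. The share for the Hist1 blocks thus depended on whether the histone genes were counted. For the second block it also fell to 16.7% in replicate 1 and 31% in replicate 2 over the 42 stretches that matched its HindIII motifs too, and over the 11 stretches within 10% of its gene starts it was 27.3% in replicate 1 and 45.5% in replicate 2.

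For the Hist2 block (17 gene starts, 8 without the members), 26.3% of 1465 matched stretches were in a region of replicate 1 and 30.5% in a region of replicate 2. Without the members in the count these shares were 13.5% and 14.5%, and over the 57 matched stretches of chromosome 3 alone they were 21.1% and 59.6%. Matched to the Hist3 block (24 gene starts), 34.0% and 39.5% of 783 stretches were in regions, and 51.1% were in neither, while on chromosome 11 alone 14.5% and 42.2% were in regions. For Hist4h4 (13 gene starts) the shares were 20.5% and 23.0% of 2132 (13.2% and 9.56% on chromosome 6 alone, 11.2% and 11.3% for stretches of 2 Mb). For Hist1h2al (4 gene starts) they were 7.49% and 8.93% of 5511. Averaged over the 6 blocks, with the Hist1 blocks counted separately, 28.8% of matched stretches were in regions of replicate 1, where 0 of 6 blocks were. The average was 31.9% in regions of replicate 2, where 2 of 6 were. Without the members in the gene count these averages were 16.5% and 18.5%, and on the same chromosome only they were 15.0% and 29.9%, over the 4 blocks with a matched stretch. The spread of this average between the replicates was 2.19 percentage points (SD, n = 2).

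**Figure D3:**
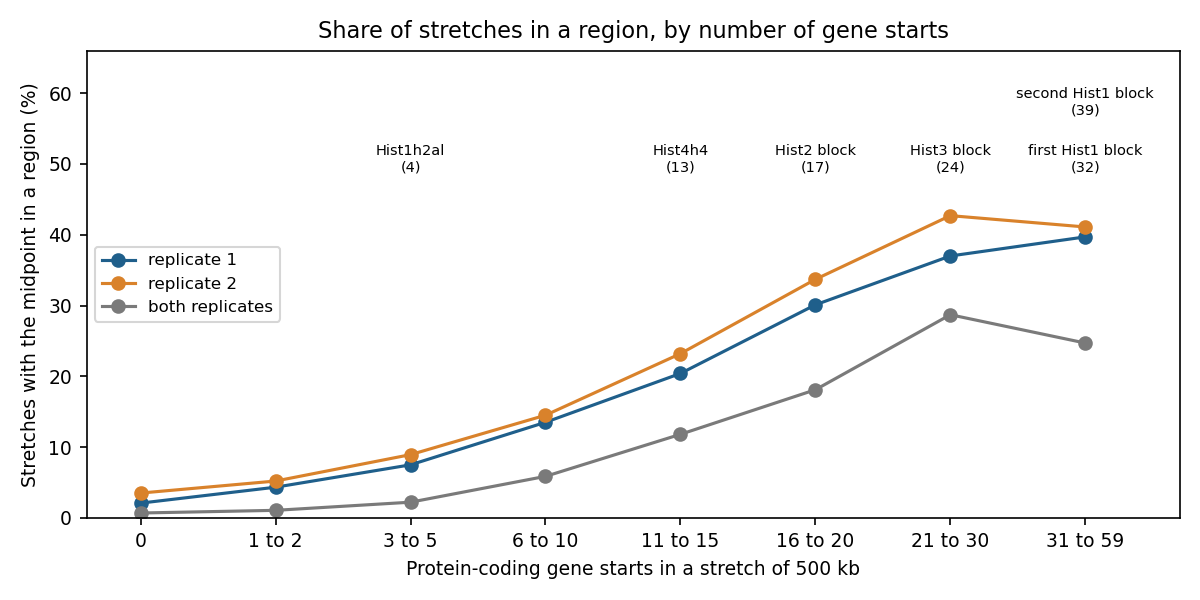
Share of stretches of 500 kb with their midpoint in an enriched region (percent), by number of protein-coding gene starts, for replicate 1 (blue), replicate 2 (orange) and both (grey). The 6 blocks are named above the bin of their own gene starts, given in brackets. The share rises to 37.0% in replicate 1 and 42.7% in replicate 2 at 21 to 30 gene starts, and both Hist1 blocks fall in the densest bin.

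Contacted HindIII sites were then examined. The table of sites lists 1806, of which 590 are outside chromosome 17. No listed site lay within 100 kb of a histone gene, against 8.54% of all protein-coding genes outside chromosome 17. The nearest was 0.990 Mb from Hist1h2al. For the other blocks the nearest listed site lay 5.61 Mb (Hist2), 23.1 Mb (Hist4h4), 28.3 Mb (second Hist1 block), 30.2 Mb (first Hist1 block) and 53.3 Mb (Hist3) away. All 1806 sites lie in regions of replicate 1 and 1653 in regions of replicate 2. Since no histone gene was in a region of replicate 1, the table could not hold a site at any of them, and the absence of sites is not a second observation.

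HindIII motifs, at which a contact could have been read, were present around every block. Stretches of 500 kb around the 6 blocks held 122 to 165 motifs each, or 293.7 per Mb in all, against 322.2 per Mb over all chromosomes but 17. Of the 67 members, 11 contained a motif in the gene body, 28 motifs in all, and 14 of these lay in Hist1h2be, whose annotated body spans 37.4 kb. From the gene start, the nearest motif was 13 to 9486 bases away (median 1340). For 5 of the blocks, the motif nearest the midpoint is shown with 12 bases on each side, plus strand, mm9, to show where a contact with the block would be read. The last line gives the listed site nearest to any histone gene. Capitals mark the HindIII motif.
First Hist1 block (chr13:21973166-21973195): cccatcttctggAAGCTTtgctttctactt
Second Hist1 block (chr13:23824724-23824753): cttatgttattcAAGCTTggttcaattgat
Hist1h2al (chr13:51298626-51298655): gaaggttccagaAAGCTTttctcactgagc
Hist2 block (chr3:96052944-96052973): cgtttctgacttAAGCTTgcttctggtaac
Hist4h4 (chr6:136755500-136755529): agaaaacctacaAAGCTTcttttgcagcta
Listed site (chr13:52288451-52288480): aaaggtaaacacAAGCTTtgccattcctta
The 5 block motifs shown had unique flanks, that is, the 30 bases running outward on each side were found once among the flanks of all motifs in the reference. None of the 5 could be among the listed sites, because all of those lie in regions of replicate 1 and these motifs do not.

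Unique flanks were less frequent in part of the Hist1 cluster. The motifs are those of the reference strain and were not read in E14 cells. In the first Hist1 block, extended to 500 kb, 114 of 154 motifs (74.0%, exact 95% interval 66.4 to 80.8%) had unique flanks, against 84.5% over all chromosomes but 17. In the second it was 157 of 165 (95.2%, interval 90.7 to 97.9%). The 1.49 Mb between these blocks held 38 gene starts, of which 32 were Vmn1r genes, a family of vomeronasal receptors, and 54.0% of its 531 motifs had unique flanks. All motifs of each stretch were counted, and repeated copies are not independent. The intervals therefore reflect the number of motifs only, not sampling. Over the cluster as a whole (2.22 Mb, 102 gene starts), 65.4% of 778 motifs had unique flanks. Called regions had a median of 92.7% in replicate 1 and 92.0% in replicate 2, and 1 of 79 and 2 of 94 were at or below the cluster's value. The part of this difference in the absence of regions was not tested.

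**Figure D4:**
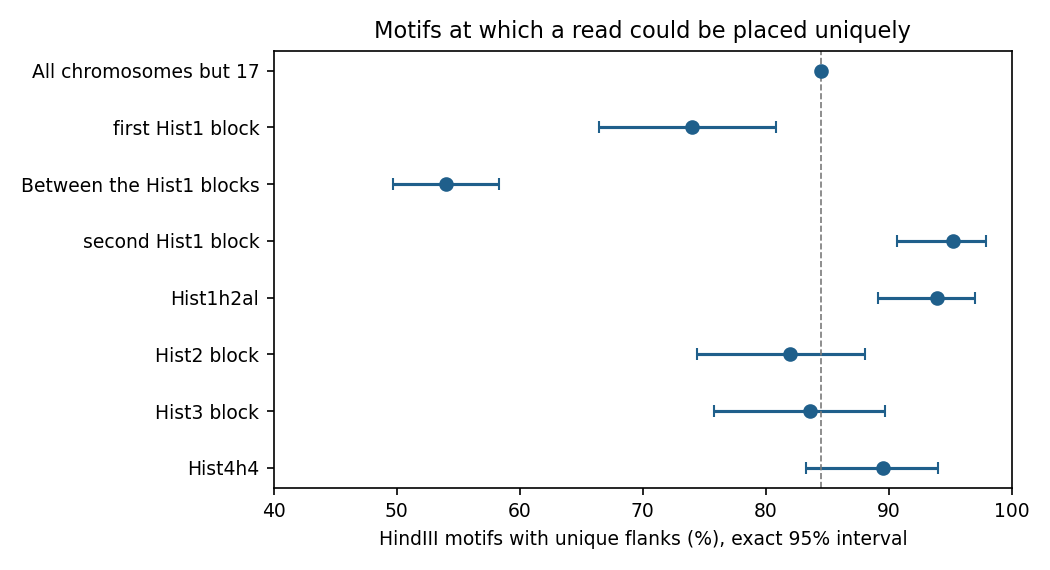
Percent of HindIII motifs whose 30 flanking bases on both sides are found once among the flanks of all motifs in the reference. Values are for the 500 kb around each histone block, the stretch between the Hist1 blocks and all chromosomes but 17 (dashed line). Bars are exact 95% intervals. The lowest value, 54.0%, is between the Hist1 blocks, and the first Hist1 block (74.0%) lies below the dashed line.

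Some of the first Hist1 block is present in inverted copies. In it, 5 pairs of HindIII motifs were reverse complements of each other over the 30 bases shown. One pair is given because it lies in a pair of H2B genes with the same coding sequence, and a read covering only these bases would match both.
Hist1h2bq (chr13:21900722-21900751): cattcttatcctAAGCTTactagggaaata
Hist1h2br (chr13:21926929-21926958): tatttccctagtAAGCTTaggataagaatg
Identical coding sequences were found in 8 members, in 4 pairs. They were Hist1h2bq and Hist1h2br (H2B), Hist1h2ao and Hist1h2ap (H2A), Hist1h4m and Hist1h4n (H4), and Hist2h2aa1 and Hist2h2aa2 (H2A). The 67 members had 63 distinct coding sequences.

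Genes that act on histones were examined as lists. Of 12 factors of histone mRNA processing and the histone locus body, 2 (16.7%) were in a region of replicate 1 and 0 in a region of replicate 2, against 17.9% and 20.2% of all genes, so the count in replicate 1 was near the background. The 2 were Slbp, which encodes the stem-loop binding protein, and Zfp473. Npat, which activates histone transcription, lay 3.04 Mb from a region of replicate 1, and Casp8ap2, the gene of the locus body protein FLASH, 94.5 Mb. Of 10 histone chaperone genes outside chromosome 17, Hira, which deposits H3.3, was in a region of both replicates, and a listed site lay in the gene. This 1 of 10 (10.0%) was near the background of 10.1% of all genes in regions of both. Chaf1a and Daxx lie on chromosome 17, where regions were called with other window sizes, and both were in regions of both replicates. The study describes a high background of contacts on this chromosome. The share of all its genes in regions was not computed, so these genes have no background beside them.

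Of 13 replication-independent histone genes that could be matched (H3f3c and H1f0 could not, and H2afx, which had the stem-loop pattern above, was counted here by its symbol), 3 (23.1%) were in regions of replicate 1, 5 (38.5%) in regions of replicate 2 and 2 (15.4%) in both, against 17.9%, 20.2% and 10.1% of all genes. H2afy, which encodes macroH2A, and H1fnt, a testis H1, were in both, H3f3a in replicate 1 only, and H2afv, H3f3b and Cenpa in replicate 2 only. H2afj, 3.87 kb from Hist4h4, was in neither. These counts rest on a few genes each.

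Other tandem gene families were counted the same way. Of 40 annotated Hox genes, which encode homeodomain factors of body patterning, 12 (30%) were in a region of replicate 1 and 24 (60%) in a region of replicate 2, against 17.9% and 20.2% of all genes, and the 12 of replicate 1 were the complete Hoxa cluster, in which Hoxa3 has 2 identifiers. Of 46 keratin genes, 0 were in a region of replicate 1 and 21 (45.7%) in a region of replicate 2, all of the latter on chromosome 15. Like the histone genes, the keratin genes were thus in regions of replicate 2 alone. Each family comprises only a few positions, and the differences between families were not tested.

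**Figure D5:**
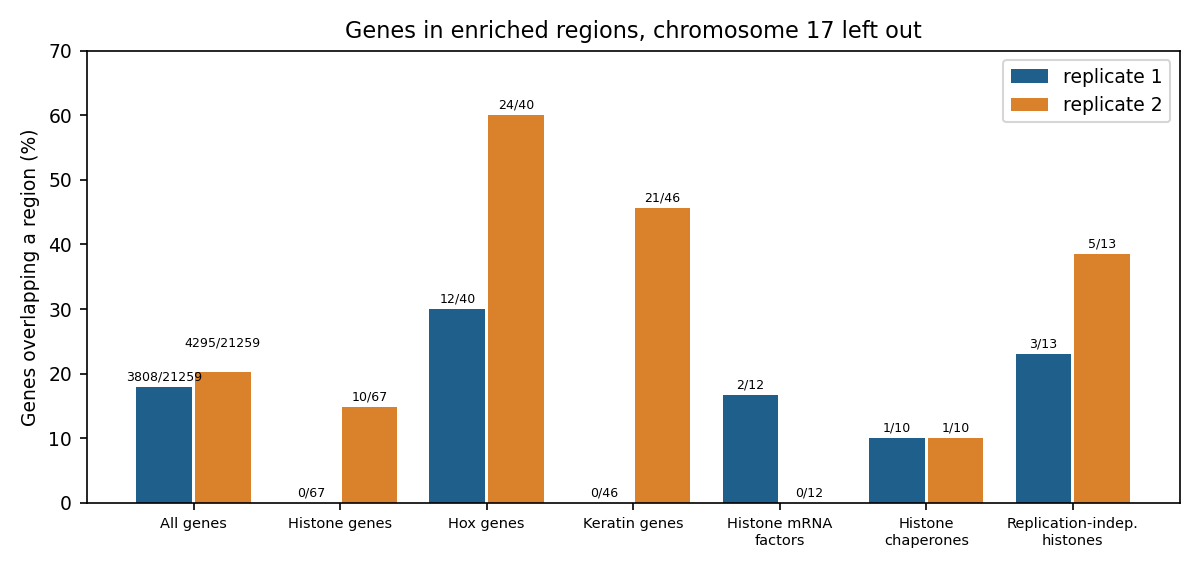
Percent of genes overlapping an enriched region in replicate 1 (blue) and replicate 2 (orange), chromosome 17 left out, with the number of genes above each bar. Histone genes stand at 0 of 67 and 10 of 67, against 17.9% and 20.2% of all protein-coding genes.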

How the data were processed

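In enzyme-based 4C-Seq of 2 E14 replicates, the authors kept reads starting with the inverse PCR primer, aligned what followed it to mm9 (BWA, version not given in the sources used here) and assigned ligation ends to HindIII sites. They scored windows of HindIII sites and kept those below a false discovery rate from permutation, in each replicate alone. The regions used here outside chromosome 17 numbered 79 in replicate 1 and 94 in replicate 2. Both numbers are larger than the study's own counts of regions on other chromosomes, and the reason is unknown. The deposited BED files hold region or site positions with no score, count or fraction of reads. The table of sites is named for reproducible regions and does not say which replicate a site came from. All 1806 of its sites lay in regions of replicate 1, and 1653 also in regions of replicate 2.

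Coordinates were counted from 1 and set against the NCBIM 37 reference (the same assembly, C57BL/6J) and GENCODE M1, in Python 3.11.15 with numpy 2.4.6, pandas 2.3.3 and scipy 1.17.1. A gene was in a region when at least 1 bp overlapped. Blocks joined members less than 500 kb apart. Intervals are exact (Clopper-Pearson, 95%). Look-ups were tested on simulated data. No test over genes was made, and the files give no read depth per region. Members and lists were chosen with earlier results of these data known. Members named were the first and last of each block, all outside the Hist1 blocks, and the listed genes in regions of both replicates. Other genes were named after their values were seen. Alternatives were other rules for overlap, blocks, distance, matching and flanks. The motif sequence of 1 block is not reported here.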

Additional observations from a re-analysis of the deposited data

How the results depend on the processing

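Counting whole gene bodies, gene starts or members extended by 100 kb left the numbers of members in regions at 0 and 10, and members of any biotype gave 0 and 11. Without one replicate, members in either list ranged from 0 to 10, blocks from 0 to 2, and the median distance of 12.9 Mb from 8.49 to 16.3 Mb. Joining members less than 2 Mb apart gave 3.45 Mb, since the Hist1 blocks then count as 1 of 5 positions. Leaving out Hist1h2al, chosen after seeing the data, gave 9 members, 1 block in replicate 2 and in either list, and 22.3 Mb. No listed site lay within 50, 250 or 500 kb. The average share of matched stretches in regions (28.8% in replicate 1, 31.9% in replicate 2) was 24.2% and 27.2% with gene starts within 50%, 16.5% and 18.5% without the members in the count, 26.2% and 26.8% with genes of all biotypes, 32.3% and 34.6% with chromosome 17 included, 25.6% and 29.7% for stretches of at least 2 Mb, and 24.5% and 29.3% with HindIII motifs matched too. On the same chromosome only it was 15.0% in replicate 1 (29.9% in replicate 2), over 4 blocks, as no stretch matched the Hist1 blocks there. The cause of these shifts was not tested, apart from the genes counted. Around the blocks 86.7% of motifs had unique flanks, 92.8% when 1 side was enough and 81.5% with flanks of 20 bases. No paired analysis was possible because there was 1 group.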
